A study of Mus musculus with 36 samples.

Results

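Rescue keratinocytes kept for 72 h in high calcium medium (HCM) were compared with the same cells after 24 h in HCM, which gave the effect of culture time within 1 cell line and 1 medium. The comparison used 6 of the study's 36 RNA libraries, 3 per time, chosen by the cell line, time and medium in their labels. WT cells of the study came from newborn Pkp4+/+ mice and PKP4-KO cells from newborn Pkp4-/- mice, whose Pkp4 allele lacks an exon. Rescue cells are PKP4-KO cells that carry a lentiviral construct for human PKP4 with EGFP at its N-terminus and were selected with puromycin. All 6 libraries therefore share the Pkp4 deletion, the construct and the selection. Whether the line came from 1 clone is not given in the sources used here, and PKP4-KO cells with an empty vector were not analysed here. HCM is the low calcium medium (LCM), which contains EGF, insulin, hydrocortisone and cholera toxin, with CaCl2 added to start differentiation. Anything else that differed between dishes harvested at 24 h and at 72 h cannot be told apart from time. Because the labels do not name separate cultures, p-values measure the spread between libraries only. That spread was estimated over all 36 libraries of the 12 groups, not over these 6 alone, unless a fit with only the compared groups is named.

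Keratinocytes divide in the basal layer of the epidermis, where they make the keratins K5 and K14 and adhere to laminin through integrins. Raised extracellular calcium makes cultured keratinocytes assemble adherens junctions and desmosomes and enter terminal differentiation. Differentiating cells switch to suprabasal keratins and then build the cornified envelope, a protein shell cross-linked by transglutaminases under the plasma membrane, together with a lipid barrier made of ceramides, cholesterol and fatty acids. PKP4 is an armadillo-repeat protein of cell-cell contacts.

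The counts per library summed to between 15832599 and 17176232 at 24 h and between 18143264 and 21669228 at 72 h. Levels are given as CPM, the count per 1000000 counts of the library after trimmed mean (TMM) scaling, with factors of 1.09 to 1.19 for these 6 libraries. A gene with 3 counts in a library of median size had 0.170 CPM, a floor for counting error only. Log2 levels correlated between 0.987 and 0.994 within each time and between 0.956 and 0.971 across the times, and no library stood apart by this measure. All 8 keratinocyte markers used to check the label were expressed, and they summed to between 41029 and 46602 CPM at 24 h and between 29371 and 29886 CPM at 72 h. The 9 fibroblast markers summed to between 1.54 and 12.01 CPM at 24 h and between 4.87 and 6.67 CPM at 72 h. Of the 9 immune markers, Cd207 and Cd3e were at 0 in all 6 libraries, and the list summed to between 97.1 and 101.7 CPM at 24 h and between 68.1 and 77.1 CPM at 72 h, most of it Cd68. The melanocyte, endothelial and Merkel cell lists summed to at most 6.67, 4.45 and 36.3 CPM in any of the 6 libraries. The part of these cells in the results was not tested.

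Neither the transgene nor the deleted gene was called between the times by edgeR over all 36 libraries. GFP-PKP4 stood at 197, 219 and 168 CPM at 24 h and 297, 341 and 245 CPM at 72 h, a log2 fold change of 0.60 ± 0.73 (the value after ± is the SE of each fold change, adjusted p = 0.616). The 72 h libraries were all above the 24 h libraries, and with only the compared groups in the fit the transgene was called higher (0.57, adjusted p = 0.00428). The same feature averaged 4.35 ± 3.27 CPM in WT at 24 h HCM (SD, n = 3), cells without the construct but with intact mouse Pkp4. Whether reads of mouse Pkp4 and of the transgene were counted for each other was not tested. Mouse Pkp4 (ENSMUSG00000026991; chromosome 2, 58991088 to 59185552, forward strand of GRCm39) stood at 6.52, 7.56 and 7.16 CPM at 24 h and 11.9, 9.07 and 7.42 CPM at 72 h (0.42 ± 0.16, adjusted p = 0.0608), and the groups overlapped. Without 72 h replicate 3 it passed the test (0.56, adjusted p = 0.0171), and with at least 10 counts required in every library its adjusted p was 0.0497. WT cells had 44.0 ± 4.27 CPM of Pkp4 at 24 h HCM.

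Of 15114 tested genes, 3676 were called (24.3%) by edgeR's quasi-likelihood test at a Benjamini-Hochberg adjusted p below 0.05. At 72 h, 2063 of them were higher (13.6%) and 1613 lower (10.7%). The median log2 fold change of all tested genes was 0.01, and the libraries of both times did not overlap for 49.0% of the tested genes. Of the 3676 called genes, 3621 had no overlap, so a lack of overlap adds little to a call. In these bulk samples, fewer cells of a type and less RNA per cell cannot be told apart. The counts and medians of each gene list stand beside these values.

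Among called coding genes with at least 5 CPM at one of the times and no overlap of the libraries, the 10 largest rises were Serpinb9e, Lce1k, Gpnmb, Lce1g, Lce1i, Lce1f, Lce1h, 2210017I01Rik, Lce1l and Bnip3, and 6 of them encode late cornified envelope (LCE) proteins. Serpinb9e, a serine protease inhibitor of the intracellular clade B, had 0, 1 and 3 counts at 24 h against 217, 288 and 133 at 72 h. That is a ratio of 132 (95% interval 51.2 to 485, counting error only), and its log2 fold change was 6.90 ± 0.81 (adjusted p = 2.38e-06). Gpnmb, which encodes a glycoprotein of lysosomes and melanosomes, stood at 0.924, 1.06 and 1.29 CPM at 24 h and 71.4, 67.1 and 24.9 CPM at 72 h (5.63 ± 0.48, adjusted p = 1.16e-09). The third 72 h library was well below the other two, yet far above every 24 h library. Bnip3, a mitophagy receptor and a standard target of hypoxia-inducible factors, stood at 6.99, 4.23 and 6.36 CPM at 24 h and 192, 257 and 189.8 CPM at 72 h (5.18 ± 0.28, adjusted p = 1.32e-13).

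By the same rule, the 10 largest falls were Kcnip3, Slc1a1, Krt42, Pycard, Il33, Nppb, Id3, Csf3, Areg and Moxd1. The rule admits only genes without overlap, so their 72 h libraries all lie below 24 h by choice. Slc1a1, a glutamate and cysteine transporter, stood at 93.6, 93.0 and 105.1 CPM at 24 h and 5.33, 6.46 and 6.28 CPM at 72 h (-4.01 ± 0.38, adjusted p = 8.13e-09). Krt42, a type I keratin, fell from 67.8, 60.2 and 55.3 CPM to 4.17, 3.89 and 3.28 CPM (-4.01 ± 0.19, adjusted p = 2.98e-14). Pycard encodes ASC, the adaptor of inflammasomes, and Kcnip3 a calcium-binding protein that can act as the transcriptional repressor DREAM. Pycard stood at 8.72, 8.73 and 5.12 CPM at 24 h and 0.371, 0.428 and 0.714 CPM at 72 h (-3.89 ± 0.53, adjusted p = 2.59e-06). Kcnip3 stood at 13.2, 16.1 and 6.41 CPM at 24 h and 0.927, 0.467 and 0.761 CPM at 72 h (-4.05 ± 0.50, adjusted p = 6.23e-07), with 1 of its 24 h libraries below the other two.

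**Figure D1:**
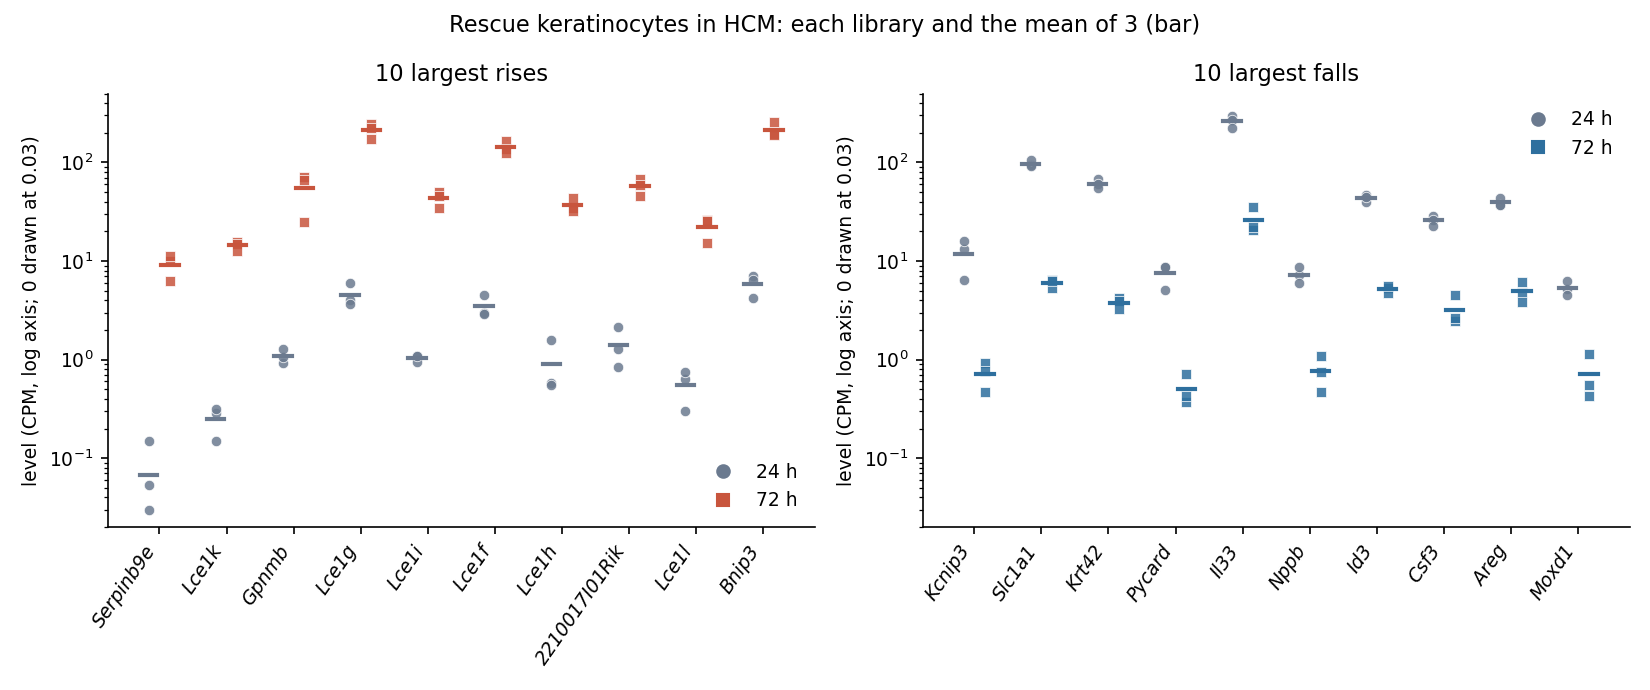
Levels (CPM, log axis) of the 10 genes with the largest rises and the 10 with the largest falls, with 24 h libraries as circles, 72 h libraries as squares and the mean of 3 libraries as a bar. The 20 genes were picked among those without overlap of the libraries, and the rises start from below 8 CPM at 24 h.

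The cornified envelope list showed most of its rises in late envelope precursors, while the transglutaminase genes Tgm1 and Tgm3 fell. Of 52 tested members, 33 were higher at 72 h and 3 lower, with a median log2 fold change of 2.02. All 14 tested Lce1 genes rose, by 3.63 to 5.82 on the log2 scale. Summed over the 14, Lce1 levels were 40.6, 54.5 and 36.3 CPM at 24 h and 1441, 1231 and 989.9 CPM at 72 h. All 6 tested Lce3 genes rose by 2.44 to 3.56, from sums of 329, 393 and 280.0 CPM to sums of 2906, 2504 and 2975 CPM. Both families were present at 24 h in every library, Lce1 at lower levels than Lce3, and each 72 h sum was several times any 24 h sum. Of 100-base stretches of the transcripts, 24.1% to 43.0% are shared with another gene for Lce3c, Lce3d, Lce3e and Lce3f, so the split between these 4 is uncertain, whereas it is at most 4.90% for each Lce1 gene.

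The small proline-rich proteins, which bridge other envelope proteins, split by gene. Sprr1a stood at 2382, 2612 and 1710.0 CPM at 24 h and 9603, 8256 and 8301 CPM at 72 h (1.96 ± 0.33, adjusted p = 4.50e-05) and Sprr2d at 885, 765 and 718 CPM at 24 h and 3463, 3209.9 and 3584 CPM at 72 h (2.11 ± 0.48, adjusted p = 0.0015). The 72 h libraries of both were above all 24 h libraries. Of 11 tested coding genes of the Sprr2 family, 5 rose and 6 were not called, and the family summed to 2755, 2276 and 2489 CPM at 24 h and 7432, 6749 and 7079 CPM at 72 h. Sprr2a1, Sprr2a2 and Sprr2a3 share 96.6%, 92.8% and 36.2% of their 100-base stretches with another gene and are uncertain. Flg, which encodes filaggrin, the keratin-aggregating protein of the granular layer, rose from 0.231, 0.212 and 0.248 CPM to 4.36, 5.18 and 1.81 CPM (4.00 ± 0.76, adjusted p = 2.50e-04).

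Involucrin and loricrin, classical envelope proteins, were not called. Ivl stood at 98.0, 108 and 95.8 CPM at 24 h and 72.5, 83.2 and 122 CPM at 72 h (-0.12 ± 0.26, adjusted p = 0.793). Lor stood at 45.8, 55.3 and 34.5 CPM and 94.2, 91.6 and 55.3 CPM (0.83 ± 0.35, adjusted p = 0.0853), with an adjusted p of 0.0495 without 72 h replicate 3 and of 0.00579 with only these 2 groups in the fit. The members that fell were the transglutaminases Tgm1 and Tgm3, which cross-link the envelope, and Evpl, which encodes envoplakin, a plakin on which the envelope is assembled. Tgm1 stood at 297, 287 and 226 CPM at 24 h and 74.5, 75.4 and 67.0 CPM at 72 h (-1.90 ± 0.21, adjusted p = 6.29e-08), and Tgm3 at 345, 353 and 257 CPM at 24 h and 122, 135 and 117 CPM at 72 h (-1.35 ± 0.19, adjusted p = 4.16e-06). Every 72 h library was below every 24 h library in both. Evpl fell by 0.97 on the log2 scale (SE 0.25, adjusted p = 0.00469).

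Most of these genes lie together in the epidermal differentiation complex, a cluster of envelope and S100 genes. On chromosome 3 of GRCm39, the span from S100a13 to S100a10 (90416091 to 93474510) held 66 tested coding genes, of which 39 were higher at 72 h (59.1%) and 1, Smcp, lower. Among all 12562 tested coding genes, 15.2% were higher. The region was chosen after its values were seen. From 2210017I01Rik to Lce1m, 25 neighbours in order were all higher, Lce genes and the non-Lce genes Kprp (12.2 to 275 CPM, 4.49 ± 0.31), Crct1 (432 to 3391 CPM, 2.97 ± 0.30) and 2310050C09Rik alike. On the other side of Smcp, 5 of the 11 Sprr2 genes and Sprr1a were higher, while Sprr1b, Sprr3 and Sprr4 were not called. Prr9 (20.6 to 260.2 CPM, 3.66 ± 0.36) was higher there too. Most S100 genes were not called, with S100a7a and S100a9 as the exceptions.

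**Figure D2:**
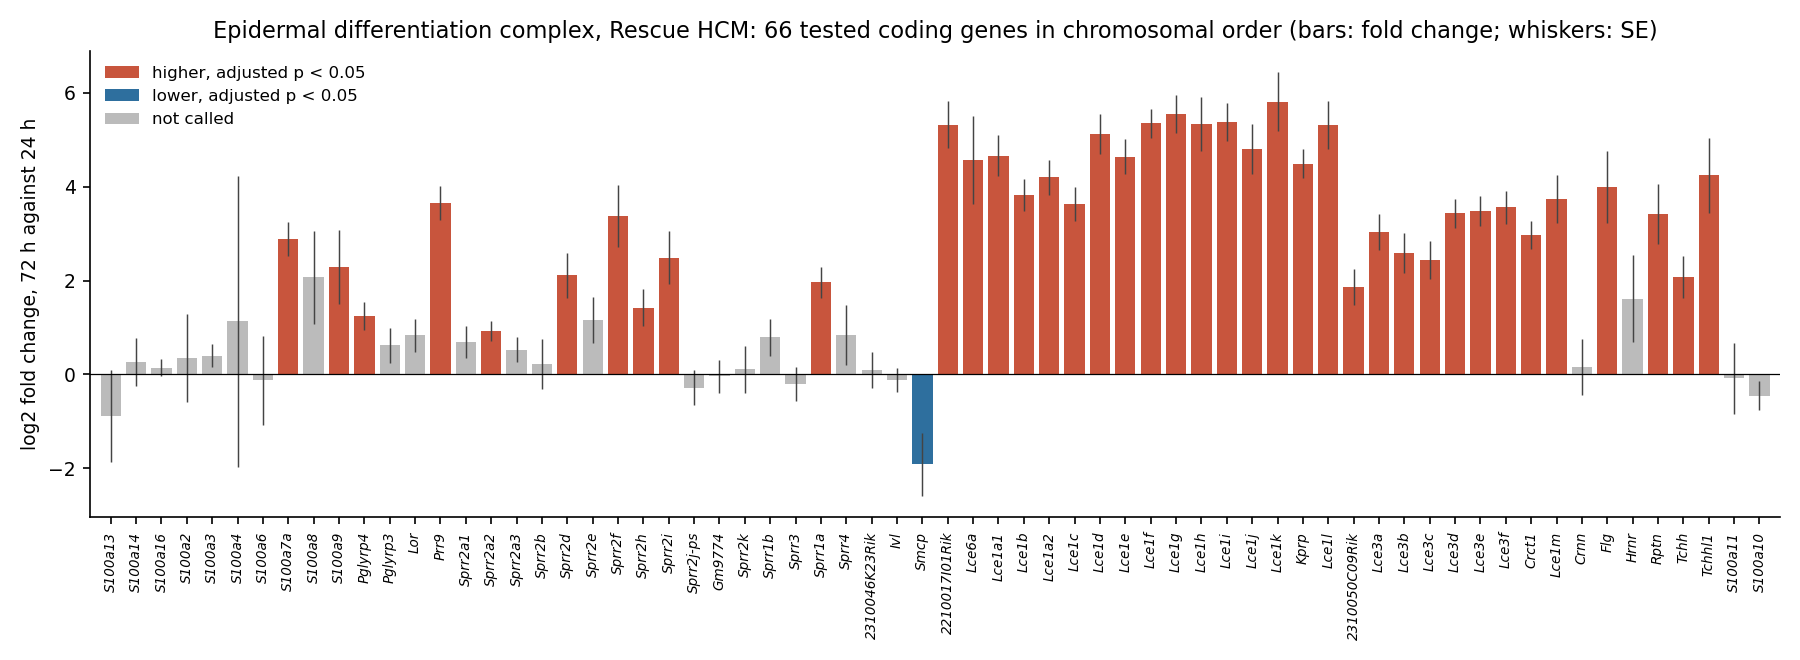
Log2 fold change between 72 h and 24 h (bars, with SE as whiskers) of the 66 tested coding genes of the epidermal differentiation complex, in chromosomal order. The run of rises from 2210017I01Rik to Lce1m contains every Lce1 and Lce3 gene tested, whereas Ivl and Lor were not called.

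Suprabasal genes rose in part. Of 14 tested members, 7 were higher and 0 lower (median 1.21). The early suprabasal keratins parted: Krt10 stood at 120.0, 119 and 69.1 CPM at 24 h and 504, 468 and 298 CPM at 72 h (2.05 ± 0.39, adjusted p = 2.45e-04), while Krt1, which pairs with it, stood at 19.2, 20.3 and 11.8 CPM at 24 h and 17.8, 18.1 and 17.5 CPM at 72 h (0.06 ± 0.47, adjusted p = 0.947). Krt1 libraries of both times overlapped. Dsc1, the desmosomal cadherin of upper layers, rose by 2.34 ± 0.57 and Sbsn, which encodes suprabasin, by 1.72 ± 0.36. Krtdap, a differentiation-associated secreted protein, was not called (0.17 ± 0.69, adjusted p = 0.888).

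Kallikreins, the serine proteases that cleave desmosomal proteins during shedding, rose for the larger part. Of 13 tested members of the list of kallikreins, Lcn2 and the inhibitors Slpi and Spink5, 10 were higher and 0 lower (median 1.65). Klk6 stood at 8.14, 9.78 and 6.26 CPM at 24 h and 202, 158 and 207 CPM at 72 h (4.55 ± 0.46, adjusted p = 1.90e-08), and Klk7 at 48.1, 57.0 and 37.4 CPM at 24 h and 387, 374 and 351 CPM at 72 h (2.96 ± 0.31, adjusted p = 3.27e-08). In both, the lowest 72 h library was several times the highest 24 h library. The inhibitor Slpi rose from 752, 847 and 695 CPM to 2234, 2052 and 2924 CPM (1.65 ± 0.32, adjusted p = 3.15e-04). Spink5, the inhibitor LEKTI of these proteases, was not called (-0.48 ± 0.41).

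Among 11 tested S100 genes, S100a7a (11.96 to 88.0 CPM, 2.88 ± 0.37) and S100a9 (78.9 to 386 CPM, 2.29 ± 0.80, adjusted p = 0.0351) rose and none fell. S100a9 was not called when any 1 of the 6 libraries was left out (adjusted p 0.0534 to 0.106). Barrier lipid genes were higher in 11 and lower in 3 of 23 (median 0.58). The dihydroceramide hydroxylase gene Degs2 (1.04 to 6.33 CPM, 2.59 ± 0.55), the sphingomyelinase gene Smpd3 (1.99 to 7.39 CPM, 1.89 ± 0.38) and the fatty acid transporter gene Slc27a4 (58.8 to 163 CPM, 1.47 ± 0.12) rose. Among those that fell, the lipoxygenase gene Alox12b, needed to attach ceramides to the envelope, stood at 51.1, 61.8 and 36.8 CPM at 24 h and 24.2, 24.5 and 22.3 CPM at 72 h (-1.08 ± 0.27, adjusted p = 0.00353).

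Krt5, Krt14 and 3 of the 4 wound-type keratins fell. Of 16 basal genes, 2 rose and 7 fell (median -0.35), against 4 that fell without 72 h replicate 3 and 1 that rose without 24 h replicate 1. Krt14 stood at 23602, 24250.5 and 20342 CPM at 24 h and 14101, 13962 and 14838 CPM at 72 h (-0.67 ± 0.15, adjusted p = 0.00128) and Krt5, its partner, at 13796, 12919 and 12253 CPM at 24 h and 8936, 9286 and 7624 CPM at 72 h (-0.59 ± 0.18, adjusted p = 0.0156). The times did not overlap, but Krt5 was not called without 72 h replicate 3 or without 24 h replicate 1 (adjusted p 0.0576 to 0.0749). Krt15, a keratin of basal cells, moved the other way, from 43.2, 38.1 and 33.1 CPM to 139, 140.2 and 118 CPM (1.80 ± 0.25, adjusted p = 4.83e-06). The hyaluronan receptor gene Cd44 fell by 1.20 (SE 0.17).

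Of the 4 keratins of wounded and hyperproliferative epidermis, 3 fell. Krt17 stood at 12644, 13394 and 10555 CPM at 24 h and 4064, 4142 and 5021 CPM at 72 h (-1.47 ± 0.15, adjusted p = 2.23e-08), Krt16 changed by -0.56 ± 0.16 and Krt6a by -0.64 ± 0.13. Krt6b was not called (0.06 ± 0.19), and since 29.5% and 30.1% of the 100-base stretches of Krt6a and Krt6b are shared with another gene, their split is uncertain. All 72 h libraries of Krt17 were below 24 h. Among the 6 simple-epithelium keratins, Krt19 (1.07 to 8.07 CPM, 2.91 ± 0.43), Krt23 (83.3 to 310.4 CPM, 1.90 ± 0.31) and Krt7 (217 to 347 CPM, 0.67 ± 0.22) rose, while Krt8 (8.28 to 3.35 CPM, -1.30 ± 0.49), Krt18 (0.378 to 1.13 CPM, 1.59 ± 1.01) and Krt20 (3.76 to 4.49 CPM, 0.25 ± 0.41) were not called. Krt8 was called lower by DESeq2 (adjusted p = 0.00884), with at least 10 counts (0.0219), with only the compared groups (1.78e-04) and with the replicate block (0.0495). The call of Krt7 was absent without 72 h replicate 1 or 3 or 24 h replicate 2 or 3 (adjusted p 0.053 to 0.0718).

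Junction genes moved in both directions, and the basal-type desmosomal cadherins and E-cadherin were among those that fell. With all libraries, desmosomal and gap junction genes were called more often than the 24.3% of all tested genes. Adherens and tight junction genes were called at shares near it. Of 13 desmosomal genes, 3 rose and 4 fell. Dsc3, a cadherin of lower layers, stood at 332, 416 and 399 CPM at 24 h and 109.9, 121 and 158 CPM at 72 h (-1.56 ± 0.39, adjusted p = 0.00345). Dsg3 changed by -1.12 ± 0.27 and the plaque gene Jup (plakoglobin) by -0.90 ± 0.20. Dsc1 rose, as given above, and Pkp2, the plakophilin of simple epithelia, rose from 1.73, 1.69 and 1.79 CPM to 8.02, 7.94 and 6.75 CPM (2.12 ± 0.39, adjusted p = 1.39e-04).

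In the adherens junction list, 0 of 15 tested members rose (1 without 72 h replicate 3) and 3 fell. Cdh1, which encodes E-cadherin, stood at 211, 228 and 224 CPM at 24 h and 99.5, 94.3 and 82.9 CPM at 72 h (-1.26 ± 0.18, adjusted p = 5.33e-06), so that every 72 h library was below every 24 h library. The nectin genes Nectin1 (-0.65 ± 0.13) and Nectin2 (-0.61 ± 0.14) were the other calls. Catenins were not called: Ctnna1 stood at 266 ± 22.03 CPM at 24 h and 321 ± 33.0 CPM at 72 h (0.27 ± 0.14) and Ctnnb1 at 399 ± 33.3 CPM at 24 h and 401 ± 15.0 CPM at 72 h (0.01 ± 0.27, SD and n = 3 each).

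Of 16 tight junction genes, the claudin gene Cldn12 rose (0.99 ± 0.24) and Cldn4 (-0.66 ± 0.17) and Marveld2, which encodes tricellulin (-1.11 ± 0.29), were among the 3 that fell. Of 9 gap junction genes, Gjb2 (connexin 26) rose by 0.57 ± 0.20, and Gjb5 fell (-1.27 ± 0.25). The call of Gjb2 was absent in 5 of the 6 fits without 1 library (adjusted p 0.0548 to 0.146), all but that without 72 h replicate 2. Gja4 (connexin 37) had 3, 0 and 0 counts at 24 h and 26, 34 and 19 at 72 h, a ratio of 21.7 (95% interval 7.17 to 107.6), and was called except without 24 h replicate 2 or 3 (adjusted p 0.067 to 0.0677).

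Transcription factors of keratinocytes split, with 7 of 27 higher and 5 lower. Prdm1, which encodes Blimp1 of granular cells, stood at 7.62, 10.5 and 6.91 CPM at 24 h and 31.4, 34.5 and 21.6 CPM at 72 h (1.80 ± 0.35, adjusted p = 3.11e-04), the nuclear receptor gene Rora rose by 1.83 ± 0.43 and Hopx by 1.16 ± 0.15. Zfp750, needed for normal differentiation, fell (-1.23 ± 0.15). Klf4, required for barrier formation, stood at 258 ± 32.4 CPM at 24 h and 273 ± 27.4 CPM at 72 h (SD, n = 3 each) and was not called (0.08 ± 0.20).

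In the Notch list, 3 of 12 rose (1 without 72 h replicate 1 or 2 or 24 h replicate 3) and 1 fell. The ligand gene Jag2 rose from 40.6, 59.7 and 39.5 CPM to 122, 127 and 112 CPM (1.37 ± 0.18, adjusted p = 1.68e-06) and the ligand gene Jag1 fell from 52.3, 47.9 and 69.1 CPM to 24.4, 25.3 and 25.7 CPM (-1.17 ± 0.29, adjusted p = 0.00301). The targets Hes1 (-0.55 ± 0.26) and Nrarp (0.58 ± 0.24) were not called by edgeR over all libraries. With only the compared groups both were called (adjusted p = 0.00134 and 0.0138), and Nrarp also by DESeq2 (0.0477) and with at least 10 counts (0.0488).

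Genes of cholesterol synthesis rose almost throughout. The list holds enzymes from acetoacetyl-CoA to cholesterol and the sterol regulators that control them. Of 24 tested members, 21 were higher and 0 lower, with a median of 1.40. Cyp51, which encodes the lanosterol demethylase, stood at 115, 112 and 99.8 CPM at 24 h and 344, 358 and 351 CPM at 72 h (1.69 ± 0.16, adjusted p = 1.02e-08). No library of one time reached the range of the other.

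Fatty acid synthesis showed the same direction, with 10 of 13 higher and 0 lower (median 0.97). Acss2, which makes acetyl-CoA from acetate, stood at 10.6, 13.1 and 8.80 CPM at 24 h and 64.3, 64.3 and 55.1 CPM at 72 h (2.50 ± 0.18, adjusted p = 8.57e-11). Scd1, a stearoyl-CoA desaturase, rose from 1.96, 1.53 and 4.72 CPM to 16.9, 13.2 and 12.6 CPM (2.37 ± 0.58, adjusted p = 0.00298), and Fasn, the fatty acid synthase, from 154, 172 and 129 CPM to 407, 435 and 338 CPM (1.37 ± 0.21, adjusted p = 1.26e-05). The groups did not overlap in any of these.

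Glycolytic and hypoxia-inducible genes rose in 24 of 29 tested members and fell in 0 (median 1.20). Hypoxia-inducible factors bind a core of ACGTG in promoters of such genes. Beside Bnip3, the prolyl hydroxylase gene Egln3 stood at 32.1, 31.3 and 33.1 CPM at 24 h and 153, 178 and 166 CPM at 72 h (2.37 ± 0.19, adjusted p = 6.10e-10). Pgk1, phosphoglycerate kinase, stood at 945, 874 and 813 CPM at 24 h and 2073, 2172 and 1794 CPM at 72 h (1.20 ± 0.14, adjusted p = 3.10e-07), and Ldha, lactate dehydrogenase A, at 1886, 1680.1 and 1625 CPM at 24 h and 3337, 3440.3 and 3016 CPM at 72 h (0.92 ± 0.13, adjusted p = 3.56e-06). In all 3 the 72 h libraries were above 24 h. Pdk1, which encodes a kinase that inhibits pyruvate dehydrogenase, rose by 1.73 ± 0.19. Vegfa, the angiogenic factor, was not called (0.55 ± 0.28, adjusted p = 0.163), except with only the compared groups in the fit (adjusted p = 0.0057). The sequences of 250 bases before the annotated start of Bnip3 (chr7:138511254-138511503, reverse strand), Ldha (chr7:46495013-46495262, forward strand) and Pgk1 (chrX:105230456-105230705, forward strand) in GRCm39 are shown because Bnip3 had the largest rise of the list and the other two encode its glycolytic enzymes named here, with ACGTG on either strand in capitals.
Bnip3: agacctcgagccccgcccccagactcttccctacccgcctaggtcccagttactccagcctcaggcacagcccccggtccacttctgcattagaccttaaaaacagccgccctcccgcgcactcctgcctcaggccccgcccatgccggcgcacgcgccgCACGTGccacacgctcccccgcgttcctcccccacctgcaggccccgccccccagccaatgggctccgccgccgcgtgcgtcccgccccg
Ldha: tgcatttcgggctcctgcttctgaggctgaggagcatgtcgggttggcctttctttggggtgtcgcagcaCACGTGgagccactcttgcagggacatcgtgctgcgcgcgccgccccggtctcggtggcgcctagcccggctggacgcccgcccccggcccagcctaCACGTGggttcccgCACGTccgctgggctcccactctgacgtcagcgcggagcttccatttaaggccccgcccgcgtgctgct
Pgk1: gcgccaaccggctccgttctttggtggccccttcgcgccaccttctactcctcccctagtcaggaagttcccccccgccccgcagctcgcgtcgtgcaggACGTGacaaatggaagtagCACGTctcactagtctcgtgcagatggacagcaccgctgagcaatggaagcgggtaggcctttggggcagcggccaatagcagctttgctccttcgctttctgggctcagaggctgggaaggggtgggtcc
ACGTG was searched on both strands, and CACGTG, which is also an E-box, counts on both. It stood in the promoters of 14 of the 29 list members and in 2637 of 12552 promoters of tested coding genes (21.0%). A match describes the letters and is no sign of binding.

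Most genes of the unfolded protein response fell. The list holds chaperones and folding enzymes of the endoplasmic reticulum, which cells induce when unfolded proteins collect there. Of 13 tested members, 1 was higher and 9 were lower (median -0.91). Hspa5, which encodes the chaperone BiP, stood at 388, 483 and 393 CPM at 24 h and 234, 237 and 212 CPM at 72 h (-0.89 ± 0.20, adjusted p = 0.00123), and Calr, calreticulin, at 596, 596 and 618 CPM at 24 h and 375, 343 and 237 CPM at 72 h (-0.92 ± 0.23, adjusted p = 0.00373). Pdia4, a disulfide isomerase, fell from 102, 102 and 102 CPM to 52.8, 43.5 and 35.7 CPM (-1.22 ± 0.14, adjusted p = 1.48e-07). No 72 h library reached a 24 h library in these genes. Hsp90b1, which encodes GRP94, changed by -0.91 ± 0.25 (adjusted p = 0.084 without TMM factors) and the isomerase gene Pdia6 by -0.98 ± 0.17. Dnajb9, a co-chaperone, was the member that rose (17.9 to 36.1 CPM, 1.01 ± 0.27, adjusted p = 0.00573). The ER stress response element, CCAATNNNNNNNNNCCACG, is the known site through which this response controls Hspa5. It is in capitals in the 250 bases before the starts of Hspa5 (chr2:34661854-34662103, forward strand), Calr (chr8:85573668-85573917, reverse strand), Hsp90b1 (chr10:86541379-86541628, reverse strand) and Pdia6 (chr12:17316283-17316532, forward strand), 4 of the members that fell and hold it. Creld2 fell and holds it as well (-1.15 ± 0.17, adjusted p = 1.05e-05), but its sequence is not shown.
Hspa5: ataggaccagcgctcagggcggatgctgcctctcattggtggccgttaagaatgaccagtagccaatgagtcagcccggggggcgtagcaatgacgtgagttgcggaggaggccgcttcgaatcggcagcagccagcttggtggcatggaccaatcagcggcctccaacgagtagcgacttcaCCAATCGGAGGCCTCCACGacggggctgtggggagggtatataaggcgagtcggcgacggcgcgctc
Calr: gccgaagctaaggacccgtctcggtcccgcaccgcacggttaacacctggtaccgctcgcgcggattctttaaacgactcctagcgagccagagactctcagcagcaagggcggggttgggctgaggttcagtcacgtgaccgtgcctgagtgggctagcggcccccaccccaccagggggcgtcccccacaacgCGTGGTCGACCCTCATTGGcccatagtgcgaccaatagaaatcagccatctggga
Hsp90b1: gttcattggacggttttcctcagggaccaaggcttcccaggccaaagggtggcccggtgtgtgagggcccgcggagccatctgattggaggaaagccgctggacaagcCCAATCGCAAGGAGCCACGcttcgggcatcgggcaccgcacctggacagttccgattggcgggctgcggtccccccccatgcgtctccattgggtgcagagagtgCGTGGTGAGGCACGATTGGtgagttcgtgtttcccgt
Pdia6: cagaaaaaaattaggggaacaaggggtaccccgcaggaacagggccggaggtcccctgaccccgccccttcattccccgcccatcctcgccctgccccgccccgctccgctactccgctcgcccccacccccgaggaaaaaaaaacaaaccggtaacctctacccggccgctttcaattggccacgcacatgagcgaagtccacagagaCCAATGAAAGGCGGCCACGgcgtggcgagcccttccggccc
The element, searched on both strands, stood in 14 of 12552 promoters (0.112%), among them 6 of the 13 list members: these 4, Creld2 and Dnajc3. Of all 14 genes, 6 fell, 2 rose and 6 were not called, so Dnajc3 held the element with a log2 fold change of 0.00 (adjusted p = 0.999) while Pdia4 fell without it in this window. For cholesterol synthesis, the sterol response element TCACNCCAC stood in 138 promoters (1.1%) and in 1 of the 24 members, Hmgcs1.

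Other stress responses moved in both directions. In the integrated stress response list, 5 of 16 rose and 2 fell, and 3 rose without 72 h replicate 1 or 2 or 24 h replicate 3. The transcription factor gene Atf5 rose (89.8 to 326 CPM, 1.86 ± 0.45), as did the phosphatase subunit gene Ppp1r15a (1.34 ± 0.22), and Ddit3, which encodes CHOP, fell (60.2 to 28.2 CPM, -1.09 ± 0.25). Atf4 was not called (-0.25 ± 0.18). In the NRF2 list, 2 of 15 rose and 3 fell. Heme oxygenase gene Hmox1 stood at 120.5, 119 and 104 CPM at 24 h and 430.2, 429 and 344 CPM at 72 h (1.81 ± 0.20, adjusted p = 1.07e-07), whereas the glutathione transferase gene Gsta4 (-1.21 ± 0.20) was among those that fell.

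**Figure D3:**
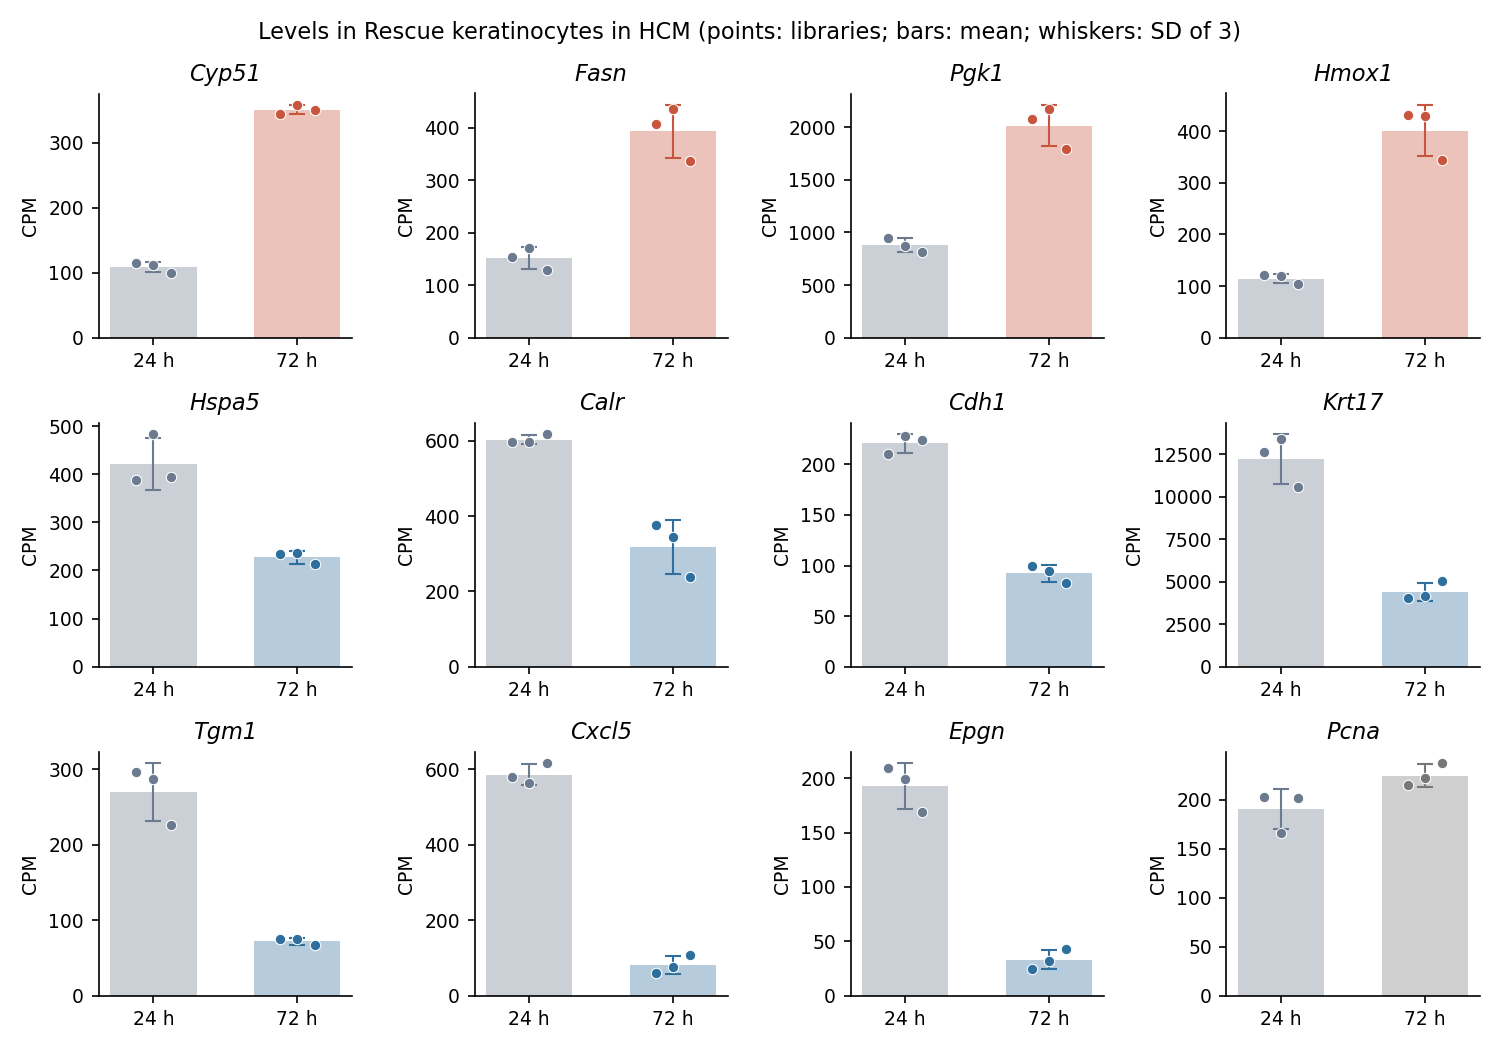
Levels (CPM) of 12 genes in the 3 libraries at 24 h and the 3 at 72 h (points), with the mean as a bar and the SD as whiskers. Cyp51, Fasn, Pgk1 and Hmox1 rose, Hspa5, Calr, Cdh1, Krt17, Tgm1, Cxcl5 and Epgn fell, and Pcna was not called.

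Among secreted signals of keratinocytes, more genes fell than rose. Of 25 cytokine and chemokine genes, 5 rose, 12 fell and 8 were not called, and the median was -1.31. Cxcl5, a chemokine that attracts neutrophils, stood at 579, 563 and 616 CPM at 24 h and 60.6, 75.0 and 108 CPM at 72 h (-2.85 ± 0.28, adjusted p = 9.55e-09). Il33, an alarmin released from damaged epithelium, stood at 298, 271 and 223 CPM at 24 h and 20.7, 22.2 and 35.7 CPM at 72 h (-3.33 ± 0.24, adjusted p = 8.42e-11), and the growth factor gene Csf3 (G-CSF) at 28.9, 26.0 and 22.9 CPM at 24 h and 2.46, 2.65 and 4.47 CPM at 72 h (-3.02 ± 0.27, adjusted p = 2.05e-09). In these 3 genes every 24 h library was several times any 72 h library. Cxcl1 changed by -2.69 ± 0.26, Tslp, an epithelial cytokine of allergic inflammation, by -2.64 ± 0.34, and Il36a by -2.43 ± 0.40. Il36g rose from 71.2, 67.6 and 56.9 CPM to 129.9, 127 and 133 CPM (0.99 ± 0.14, adjusted p = 7.11e-06). Tnf had 3, 5 and 10 counts at 24 h and 1, 0 and 0 at 72 h, a ratio of 0.0459 (95% interval 0.0011 to 0.290), and was not called without 72 h replicate 2 or 3 or 24 h replicate 3 (adjusted p 0.0581 to 0.0752). The summed immune markers given above were lower at 72 h too. The markers did not move together: Csf1r, the receptor gene of a macrophage growth factor, rose from 8, 3 and 15 counts to 137, 132 and 83 (log2 fold change 3.47, adjusted p = 0.00263), Lyz2, a lysozyme gene of myeloid cells, fell from 57, 16 and 0 counts to 0 in each library (adjusted p = 0.0398), and Cd68 was not called (-0.56, adjusted p = 0.159). Cd3e and Cd207 were at 0. The part of immune cells in this list was not tested.

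Several ligands of the EGF family fell, while the receptor gene Erbb3 rose. Of 12 tested members, 3 rose and 5 fell. The ligand gene Areg (amphiregulin) stood at 37.3, 43.2 and 37.2 CPM at 24 h and 4.77, 3.82 and 6.18 CPM at 72 h (-3.00 ± 0.29, adjusted p = 7.80e-09) and Epgn (epigen) at 209.7, 199 and 169 CPM at 24 h and 24.9, 32.2 and 42.5 CPM at 72 h (-2.54 ± 0.24, adjusted p = 6.13e-09). Hbegf fell from 48.4, 62.4 and 44.6 CPM to 12.8, 15.1 and 17.1 CPM (-1.78 ± 0.20, adjusted p = 1.31e-07), again without overlap. The receptor gene Erbb3 rose by 1.14 ± 0.16.

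Of 17 TGF-β and BMP pathway genes, 2 rose and 4 fell, the latter 2 without 72 h replicate 1. The BMP targets Id1 and Id3, inhibitors of bHLH factors, were the largest falls: Id1 stood at 84.6, 80.0 and 74.5 CPM at 24 h and 18.6, 15.5 and 23.8 CPM at 72 h (-2.05 ± 0.23, adjusted p = 1.14e-07) and Id3 at 46.7, 39.3 and 45.0 CPM at 24 h and 5.37, 4.71 and 5.52 CPM at 72 h (-3.07 ± 0.16, adjusted p = 1.17e-13). In both genes all 72 h libraries were below 24 h. The ligand gene Bmp4 was nearly absent at 24 h, with 1, 0 and 1 counts against 18, 10 and 12 at 72 h, a ratio of 16.5 (95% interval 4.28 to 141), and its call was absent without 72 h replicate 1 or any 24 h library (adjusted p 0.0562 to 0.0963), which left 1 gene higher.

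Matrix and protease genes were lower in 10 and higher in 3 of 25 (median -0.72), and lower in 6 without 72 h replicate 2. Col7a1, the collagen of anchoring fibrils, stood at 30.7, 25.6 and 28.5 CPM at 24 h and 7.09, 7.24 and 8.42 CPM at 72 h (-1.90 ± 0.24, adjusted p = 6.02e-07), and Sparc, a collagen-binding secreted protein, at 378, 374 and 446 CPM at 24 h and 252, 241 and 231 CPM at 72 h (-0.73 ± 0.13, adjusted p = 8.04e-05). Plat, the tissue plasminogen activator, rose from 1.56, 1.27 and 1.94 CPM to 5.19, 7.59 and 4.71 CPM (1.87 ± 0.41, adjusted p = 0.00109). Col1a1, also a fibroblast marker, had 34, 56 and 3 counts at 24 h and 3, 1 and 0 at 72 h, with adjusted p of 0.0508 to 0.0966 without 72 h replicate 2 or 3 or 24 h replicate 1 or 2, and Col3a1 had 17, 74 and 0 against 1, 0 and 0. The fibroblast marker Pdgfra moved the other way, from 3, 5 and 6 counts to 119, 124 and 109. The part of fibroblast markers in this list's falls was not tested.

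Among 18 AP-1 and immediate-early genes, 5 rose (3 without 24 h replicate 3) and 2 fell. Dusp4, a phosphatase that turns off MAP kinases, stood at 2.66, 3.75 and 1.99 CPM at 24 h and 37.1, 38.7 and 26.3 CPM at 72 h (3.60 ± 0.36, adjusted p = 1.89e-08), and Fos fell from 18.4, 19.3 and 13.4 CPM to 5.51, 5.80 and 4.47 CPM (-1.69 ± 0.27, adjusted p = 3.22e-05). The calcium handling list, which holds channels, pumps and calmodulins, had 3 higher and 4 lower of 19. Trpv3, a warmth-activated channel of keratinocytes, rose (2.79 to 7.58 CPM, 1.44 ± 0.35), and the phospholipase gene Plcd1 (146 to 50.2 CPM, -1.54 ± 0.12) and the calcium pump gene Atp2b4 (-1.52 ± 0.21) fell. Of 37 interferon-stimulated genes listed, 16 were tested, 2 higher and 1 lower. Stat2 (1.02 to 3.12 CPM, 1.61 ± 0.30) and Irf1 (3.08 to 6.29 CPM, 1.03 ± 0.21) rose, and the fall was called only with all 6 libraries or without 24 h replicate 1.

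Among genes of DNA replication and mitosis more fell than rose, and the numbers called stood near the 24.3% of all tested genes. Of 36 DNA replication genes, 2 rose (1 if any library but 24 h replicate 3 was left out) and 5 fell (3 without 72 h replicate 1 or 24 h replicate 1 or 3), with a median log2 fold change of 0.00. Pcna, the sliding clamp of DNA polymerases, stood at 191 ± 20.8 CPM at 24 h and 225 ± 11.7 CPM at 72 h (SD, n = 3 each) and was not called (0.24 ± 0.13, adjusted p = 0.2). Of 35 mitotic genes, 1 rose and 5 fell, with a median of -0.21. The rise was absent if any library but 72 h replicate 3 was left out, and 3 fell without 72 h replicate 2 or 24 h replicate 1. The kinesin gene Kif20a fell by 0.60 and the cyclin gene Ccnb2 by 0.47 on the log2 scale, with adjusted p of 0.0763 and 0.148 without TMM factors. Mki67, the proliferation marker, stood at 19.4 ± 6.29 CPM at 24 h and 26.2 ± 11.2 CPM at 72 h and was not called (0.44 ± 0.39, adjusted p = 0.465). Among 17 G1 regulators, 5 rose and 0 fell. The kinase inhibitor genes Cdkn2c (6.42 to 14.2 CPM, 1.14 ± 0.24) and Cdkn2d (6.12 to 12.2 CPM, 0.998 ± 0.17) rose, and Cdkn1a, which encodes p21, was not called (-0.22 ± 0.27). Of 22 p53 targets, 5 rose, led by Trp53inp1 (8.86 to 26.2 CPM, 1.56 ± 0.36) and Pmaip1, which encodes NOXA (49.7 to 116 CPM, 1.23 ± 0.27). Sfn, which encodes 14-3-3σ, was among the 2 that fell, from 3411, 3216 and 2874 CPM to 1498, 1427 and 1591 CPM (-1.07 ± 0.21, adjusted p = 3.21e-04).

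With all 6 libraries, contractility and actin genes were called at shares near the 24.3% of all tested genes, and integrin and focal adhesion genes more often. Of 29 contractility genes (small GTPases, ROCK kinases and myosins), 6 rose and 2 fell, or 1 if any library but 24 h replicate 3 was left out (median 0.06). Cfl2, a muscle-type cofilin (19.5 to 49.1 CPM, 1.33 ± 0.15), and the GTPase gene Rhob (30.8 to 59.5 CPM, 0.95 ± 0.15) rose, and the non-muscle myosin gene Myh14 fell (81.4 to 33.4 CPM, -1.28 ± 0.26). Of 21 actin genes, 2 rose and 3 fell, with Actb at 2025 ± 92.5 CPM at 24 h and 2490.1 ± 146 CPM at 72 h (SD, n = 3 each) not called (0.30 ± 0.60). With only the compared groups in the edgeR fit, Actb was called higher (0.26, adjusted p = 0.0438). Srf, the factor that drives many actin genes, rose (15.5 to 35.6 CPM, 1.20 ± 0.22, adjusted p = 1.39e-04). Integrin and focal adhesion genes were higher in 7 and lower in 2 of 19, against 4 higher without 72 h replicate 2 or 24 h replicate 3 and 1 lower without 72 h replicate 3 or 24 h replicate 1. Zyx, which encodes zyxin of focal adhesions, stood at 79.3, 81.0 and 66.2 CPM at 24 h and 231, 209.6 and 158 CPM at 72 h (1.40 ± 0.17, adjusted p = 3.08e-07), Tns3 (tensin 3) rose by 1.42 ± 0.24, and the integrin gene Itgb6 fell by 1.28 (SE 0.20). All 72 h libraries of Zyx were above 24 h. In the YAP/TAZ list 3 of 21 rose, among them Wwtr1, which encodes TAZ (15.0 to 41.1 CPM, 1.46 ± 0.19), and 1 fell. Of 11 genes of mesenchymal transition, 1 rose, Snai2 (48.3 to 79.8 CPM, 0.72 ± 0.19, adjusted p = 0.0627 without TMM factors), and 3 fell, Cdh1 among them (1 without 72 h replicate 2).

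**Figure D4:**
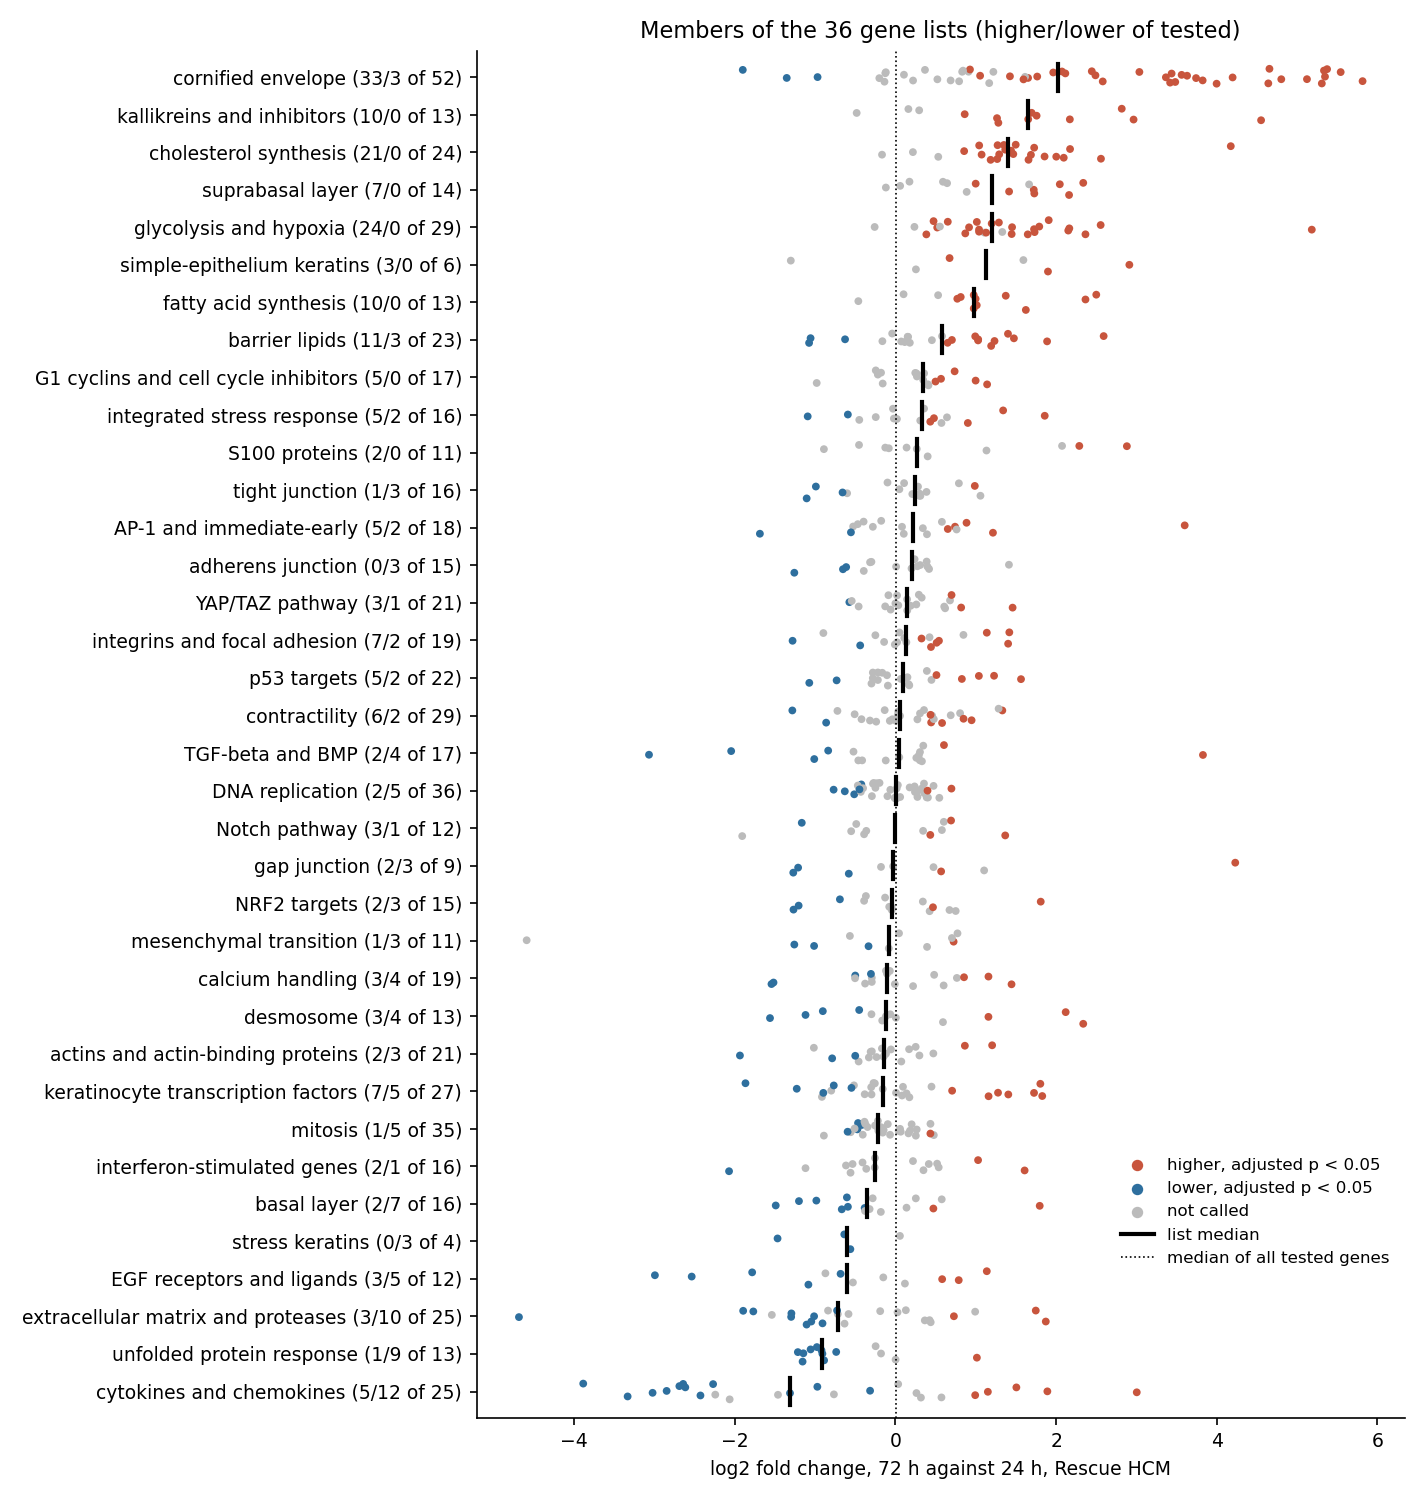
Log2 fold change between 72 h and 24 h of every tested member of the 36 gene lists (points, red if higher and blue if lower at an adjusted p below 0.05, grey if not called), with list medians as black bars and the numbers higher and lower beside each name. Envelope, kallikrein, cholesterol, glycolysis and fatty acid lists lie to the right of the median of all tested genes at 0.01, and the cytokine and unfolded protein response lists to the left.

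The effect of culture time in Rescue HCM was then set against that in Rescue LCM, in WT HCM and in PKP4-KO HCM. Each difference of the time effects was tested in the same model, and the 4 time effects share no library. The time effect differed from Rescue LCM in 1896 of 15114 genes (12.5%), 958 more positive (6.34%) and 938 more negative (6.21%) in HCM. It differed from WT HCM in 1583 (10.5%), of which 862 were more positive (5.70%) and 721 more negative (4.77%), and from PKP4-KO HCM in 7130 (47.2%), of which 4098 were more positive (27.1%) and 3032 more negative (20.1%). Against WT HCM the count fell to 907 without WT 24 h replicate 1, to 926 and 1047 without Rescue 72 h replicate 2 or 1, to 1018 without WT 72 h replicate 3, and to 876 with no filter on low counts. The splits depended on the scaling. Without TMM factors they were 850 and 547, 936 and 374, and 8189 and 1044, with the median of all genes at 0.17, 0.35 and 1.21 on the log2 scale.

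Lipid synthesis, glycolysis and integrin genes had a more positive time effect in Rescue HCM than in Rescue LCM and WT HCM for many members. Against PKP4-KO HCM this held for fatty acid and integrin genes, while glycolysis genes split and cholesterol genes, more positive in 8 of 24, stood near the 27.1% of all tested genes. The median of fatty acid synthesis was 0.97 there against -0.09 in Rescue LCM, -0.15 in WT HCM and -0.27 in PKP4-KO HCM. The differences passed the test in 8, 5 and 9 of 13 members as more positive, and in 0, 0 and 1 as more negative. For Fasn the time effect of 1.37 stood beside 0.39 in Rescue LCM, a difference of 0.99 ± 0.29 (adjusted p = 0.022), 0.21 in WT HCM, a difference of 1.16 ± 0.29 (adjusted p = 0.00987), and -0.27 in PKP4-KO HCM, a difference of 1.64 ± 0.29 (adjusted p = 4.68e-05). For cholesterol synthesis, the medians were 1.40, 0.65, 0.60 and 1.09 in the same order, with 7, 11 and 8 members more positive and 0, 0 and 3 more negative. For glycolysis and hypoxia they were 1.20, 0.59, 0.29 and 1.12, with 10, 15 and 9 members more positive and 2, 0 and 11 more negative. Against PKP4-KO HCM the glycolysis split depended on the scaling, since without TMM factors 17 were more positive and 4 more negative, and for cholesterol synthesis 18 and 1. Integrin and focal adhesion genes were more positive in 6, 5 and 16 of 19 members and more negative in none of the 3 differences.

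Stress keratins and cytokines went the other way. The stress keratins had a median of -0.60 in Rescue HCM and of 0.995 in Rescue LCM, 0.35 in WT HCM and 2.18 in PKP4-KO HCM, and the difference was negative in 4, 3 and 4 of the 4 genes, or in 1 against WT HCM without TMM factors. For cytokines and chemokines, the medians were -1.31, -0.54, 0.52 and 1.52, and 12, 9 and 16 of 25 members were more negative, or 5 against WT HCM without TMM factors. Il33 fell in Rescue HCM, as given above, but stood at 33.1, 29.1 and 20.4 CPM at 24 h and 138, 94.5 and 132 CPM at 72 h in Rescue LCM, a difference of -5.48 ± 0.33 (adjusted p = 1.03e-11). In LCM all 72 h libraries were above 24 h, the reverse of HCM. In the unfolded protein response, 7 of 13 members were more negative than in Rescue LCM, 0 than in WT HCM and 8 than in PKP4-KO HCM. Without TMM factors they were 3 against Rescue LCM and 2 against PKP4-KO HCM, with 3 more positive there.

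Cornified envelope genes had positive median time effects in all 4 comparisons, and in Rescue HCM a smaller one for many members. The medians were 2.02, 2.48, 2.67 and 3.92, and 11, 13 and 27 of 52 members were more negative in Rescue HCM, while 8, 2 and 7 were more positive. Against WT HCM and without TMM factors, 8 were more negative, and against PKP4-KO HCM 13 were more positive. Of 14 Lce1 genes, 7 were more positive than in Rescue LCM and 6 than in PKP4-KO HCM, with none more negative. Against WT HCM, 1 was more positive and 2 were more negative. The loricrin gene Lor rose by 4.03 in WT HCM (adjusted p = 2.08e-08) against 0.83 in Rescue HCM, a difference of -3.20 ± 0.50 (adjusted p = 1.49e-04). Its time effects in Rescue LCM and PKP4-KO HCM were 2.77 and 3.81, so the smaller value of Rescue HCM was not particular to the comparison with WT. Tgm1, which fell in Rescue HCM, had time effects of 1.91, -0.92 and 5.01 in Rescue LCM, WT HCM and PKP4-KO HCM, with differences of -3.81 ± 0.29, -0.98 ± 0.28 and -6.91 ± 0.31 (adjusted p = 4.21e-10, 0.0247 and 2.07e-15). DNA replication genes, unmoved at the median in Rescue HCM, had medians of -0.24, -0.46 and -1.70 elsewhere, and 5, 13 and 28 of 36 were more positive in Rescue HCM.

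**Figure D5:**
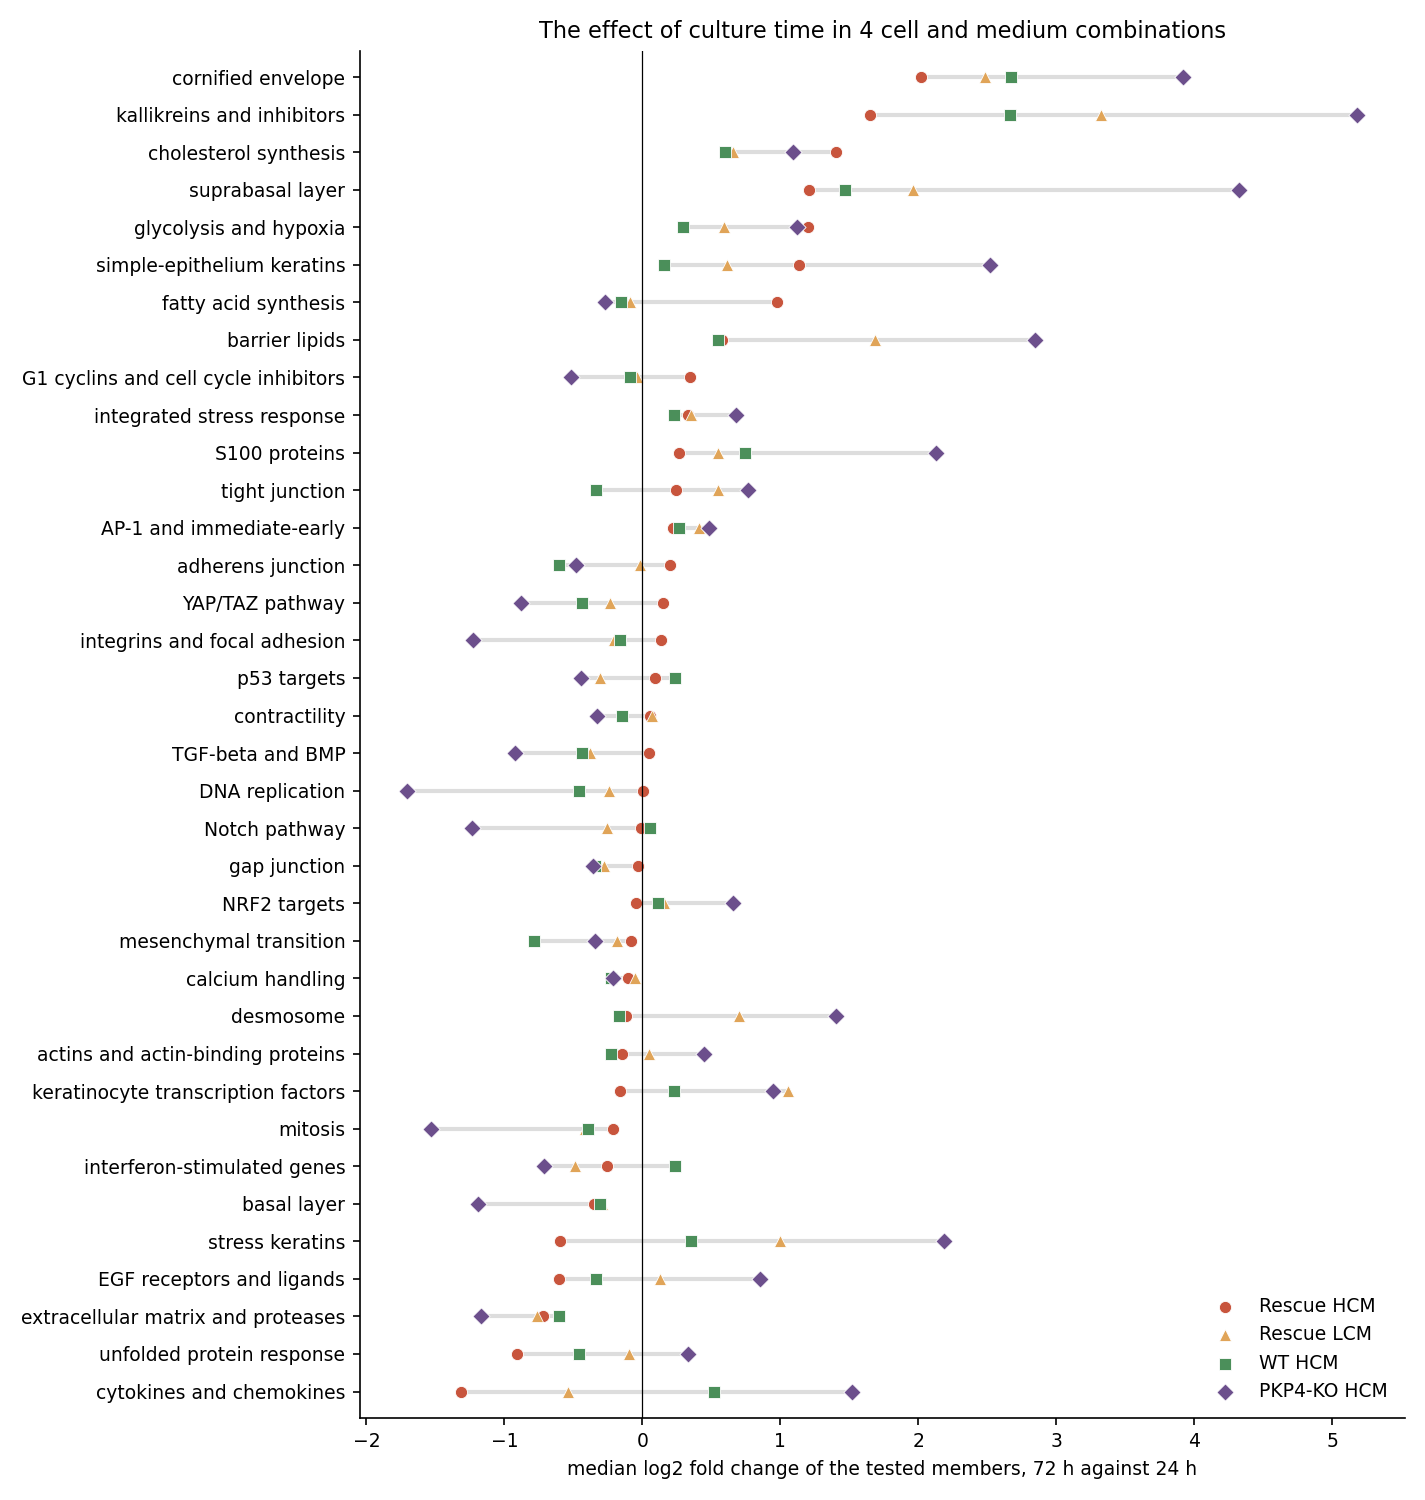
Median log2 fold change between 72 h and 24 h of the tested members of the 36 lists, in Rescue HCM (circles), Rescue LCM (triangles), WT HCM (squares) and PKP4-KO HCM (diamonds). Fatty acid synthesis is clearly above 0 only in Rescue HCM at 0.97, and the stress keratin and cytokine medians of Rescue HCM are the lowest of the 4.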

How the data were processed

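RNA of murine keratinocytes was sequenced as strand-specific poly(A) libraries. Per the labels and the study's methods, the authors aligned the reads with HISAT2 2.1.0 to the mouse build mm39 extended by GFP-PKP4, sorted them with SAMtools 1.10 and counted them per Ensembl gene with featureCounts 2.0.0. The deposited values are raw counts of 55358 features in 36 libraries of 12 groups with 3 libraries each. The strand setting of the counting is not given in the sources used here, so genes that overlap on opposite strands are uncertain.

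The counts were tested with edgeR 4.0.16 in R 4.3.3 (quasi-likelihood test, trimmed mean of M-values factors, expression filter over the 12 groups, 1 mean per group, 24 residual degrees of freedom). All 36 libraries entered 1 fit, and p-values were adjusted over the 15114 tested genes (Benjamini-Hochberg, threshold 0.05). Levels (CPM) are relative to the filtered, scaled library sizes. Differences between time effects were contrasts of the same fit. For genes with 3 or fewer counts in all libraries of a time, ratios of summed counts have exact 95% intervals, which cover counting error only. The script was tested on simulated data in which 195 of 14614 genes changed, and it made 107 true and 4 false calls. It recovered 40.2% of changes of 1 and 69.4% of changes of 2 on the log2 scale. A gene that was not called can thus have changed.

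Named are Pkp4 and the transgene, the 10 largest rises and falls as defined in the text, up to 3 called members with the largest change and up to 2 members with the highest level of each of 36 gene lists, and the 5 coding genes with the largest absolute difference per difference of time effects. Tgm1, Tgm3, Evpl, Ivl, Lor, Flg, Krt1, Sbsn, Hsp90b1, Pdia6, Dnajb9, Dsg3, Jup, Fasn, Pdk1, Vegfa, Zfp750, Klf4, Kprp, Prr9, Crct1, Mki67, Cxcl1 and Erbb3, and genes named outside these sets were chosen after their values were seen. Some genes that the rule names are not reported here. The comparison, its members and the lists were chosen with earlier results of these data known. Promoters, coordinates and shared 100-base stretches come from the GRCm39 reference, whose annotation matched 54749 of the 55358 features (98.9%). The alternatives tried were the size factors and test of DESeq2 1.42.0, no TMM factors, no filter, a minimum of 10 counts, only the compared groups, a replicate block and leaving out single libraries.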

Additional observations from a re-analysis of the deposited data

Results flagged for a closer look

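The change over culture time in Rescue HCM differed from that in the other cells or medium in the tests of the difference itself. It differed in 1896 genes from Rescue LCM, in 1583 from WT HCM and in 7130 from PKP4-KO HCM, out of 15114 tested genes in each.

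Against Rescue LCM, the 5 coding genes with the largest absolute differences were Il33, Tcf23, Lce1g, Gpnmb and Alox12b. Il33 differed by -5.48 ± 0.33 on the log2 scale (± SE, edgeR, adjusted p = 1.03e-11), with its levels given above. Tcf23, a bHLH factor, stood at 2.25, 2.75 and 2.04 CPM at 24 h and 1.02, 1.44 and 1.33 CPM at 72 h in HCM, and at 1.82, 2.52 and 0.982 CPM at 24 h and 24.4, 18.7 and 16.7 CPM at 72 h in LCM, a difference of -4.35 ± 0.64. The 3 LCM libraries at 72 h were above all others. Lce1g (4.35 ± 0.52) and Gpnmb (4.34 ± 0.60) rose more in HCM. Gpnmb reached only 2.87, 3.85 and 3.27 CPM at 24 h and 8.43, 9.57 and 6.51 CPM at 72 h in LCM. Alox12b fell in HCM and rose in LCM, where it stood at 16.9, 20.5 and 12.2 CPM at 24 h and 134, 184 and 123 CPM at 72 h, a difference of -4.22 ± 0.39.

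Against WT HCM they were Mt4, Gpnmb, Il36a, Kcnip3 and Ms4a10. Mt4, a metallothionein of squamous epithelia, differed by -4.39 ± 1.43 (adjusted p = 0.0476), but WT stood at 6.03, 77.2 and 8.77 CPM at 24 h and 31.0, 20.8 and 147 CPM at 72 h, and the difference was not called without any 1 of the 6 Rescue libraries, WT 72 h replicate 3 or WT 24 h replicate 1 or 3 (adjusted p 0.0638 to 0.204). Gpnmb differed by 4.13 ± 0.96 (adjusted p = 0.0058), with at most 15 counts in any WT library, and by 3.37 (adjusted p = 0.158) without WT 24 h replicate 1. Il36a, an interleukin 1 family cytokine, fell in Rescue and stood at 2.73, 7.83 and 3.26 CPM at 24 h and 9.98, 9.98 and 19.4 CPM at 72 h in WT, a difference of -3.94 ± 0.56. Kcnip3 fell in Rescue and stood at 15.9, 21.3 and 12.8 CPM at 24 h and 12.5, 8.04 and 22.05 CPM at 72 h in WT, where the times overlapped, a difference of -3.81 ± 0.65. Ms4a10 differed by -3.43 ± 0.36, with WT at 2.27, 2.73 and 3.16 CPM at 24 h and 8.33, 10.5 and 15.8 CPM at 72 h.

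Against PKP4-KO HCM they were Pycard, Rbp7, Kcnip3, Wfdc12 and Tslp. Pycard fell in Rescue and rose in PKP4-KO, where it stood at 0.140, 0.0837 and 0.295 CPM at 24 h and 17.9, 21.8 and 17.7 CPM at 72 h, a difference of -10.75 ± 0.83 (adjusted p = 4.46e-11). Kcnip3 did so as well, with PKP4-KO at 0.466, 0.126 and 0.665 CPM at 24 h and 19.2, 22.2 and 16.6 CPM at 72 h and a difference of -9.65 ± 0.75, and so did Tslp, with PKP4-KO at 2.38, 2.26 and 3.47 CPM at 24 h and 173, 177 and 108 CPM at 72 h and a difference of -8.48 ± 0.52. In these 3 genes the PKP4-KO libraries at 72 h were all above those at 24 h. Rbp7, a retinol-binding protein, and Wfdc12, a protease inhibitor, were at or near 0 in the 6 Rescue libraries, so their differences of -10.16 ± 2.47 (adjusted p = 0.00172) and -8.82 ± 3.43 (adjusted p = 0.0379) depend on the prior count, and they describe the rise in PKP4-KO to 108 and 38.9 CPM on average. Rbp7 was not called without Rescue 24 h replicate 1 (adjusted p = 0.111), nor Wfdc12 without Rescue 24 h replicate 1 or 72 h replicate 2 (adjusted p 0.0528 to 1).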

How the results depend on the processing

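The call of 3676 genes between 72 h and 24 h was 4138 with DESeq2, 2860 without TMM factors, 2861 of 28780 genes with no filter, 3536 with at least 10 counts in every library compared and 5876 of 13200 genes with only the 2 groups compared in the fit. It was 2714 to 3249 without single libraries, where the filter was applied anew and left 15487 to 15592 tested genes. These fits also hold fewer libraries, so a lost call need not rest on the library left out. For the difference from WT HCM, the 1583 genes became 876 with no filter on low counts, and 907 to 1927 without single libraries, while the differences from Rescue LCM and PKP4-KO HCM were 1428 to 1927 and 6107 to 7825. The difference from PKP4-KO HCM had 4098 more positive and 3032 more negative genes, 3715 and 3707 with DESeq2 and 8189 and 1044 without TMM factors. Against WT HCM the splits were 862 and 721, and 385 and 491 with no filter, against Rescue LCM 958 and 938, and 850 and 547 without TMM factors. The causes of these shifts were not tested.

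Of 175 named genes called between the times, all 175 stayed called with DESeq2, all 172 tested with only the compared groups and all 163 tested with at least 10 counts, while 15 were not called without TMM factors and 6 with no filter. Over single libraries left out, 976 gene-by-library fits kept the call and 74 did not. None of the 175 changed direction. Of 47 named genes not called, 19 became called with only the compared groups, 5 with DESeq2 (Krt8, Nrarp, Elovl4, Actg1 and Calm2), 4 with at least 10 counts (Krt8, Nrarp, Elovl4 and Pkp4), 1 without TMM factors (Cfl1), 1 with the block (Krt8) and 3 in 1 fit each without 72 h replicate 3 (Calm2, Lor and Pkp4). Direction changes were limited to genes that were not called and near 0. Ctnnb1 was at -0.031 with no filter and -0.024 with only the compared groups, and Phgdh, an enzyme of serine synthesis, at 0.031 without TMM factors. Without single libraries, the log2 fold changes ran from -0.061 to 0.054 for Ctnnb1, -0.15 to 0.045 for Phgdh, -0.040 to 0.13 for F11r, -0.37 to 0.028 for Ivl, -0.018 to 0.16 for Klf4, -0.15 to 0.20 for Krt1, -0.13 to 0.16 for Krt6b and -0.31 to 0.23 for S100a11. Wfdc12, at or near 0 counts, ran from -2.32 to 0.

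Whether replicate numbers pair the samples stayed undecided. Deviations of same-numbered libraries at 24 h and 72 h correlated at -0.06, 0.19 and 0.08 across genes. Those of differently numbered libraries correlated at -0.29 to 0.17. So few libraries cannot exclude a pairing. With the replicate number within each cell line as a block, 3452 genes were called, and the differences were 1687, 1302 and 6727 genes against Rescue LCM, WT HCM and PKP4-KO HCM. The calls of Cers3, Gjb2, S100a9, Mt4 (difference from WT HCM) and Wfdc12 (difference from PKP4-KO HCM) were absent under the block. Depth limits genes with few counts at one time, such as Serpinb9e, Bmp4 and Tnf, whose fitted fold changes depend on the prior count.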

Other observations

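Genes of lysosomes and autophagy rose in Rescue HCM. The list was put together after the rise of Gpnmb and Bnip3 had been seen, so its counts are a description. Of 30 tested members, 23 were higher at 72 h and 0 lower, with a median of 0.82 beside 0.01 over all tested genes. Lamp1, the major membrane glycoprotein of lysosomes, stood at 380.0, 357 and 306 CPM at 24 h and 575, 608 and 509 CPM at 72 h (0.70 ± 0.14, adjusted p = 3.43e-04), and Ctsd, the protease cathepsin D, at 306, 322 and 272 CPM at 24 h and 767, 676 and 719 CPM at 72 h (1.26 ± 0.20, adjusted p = 1.70e-05). Sqstm1, the autophagy receptor p62, rose from 265, 289 and 211 CPM to 538, 496 and 329 CPM (0.83 ± 0.15, adjusted p = 8.80e-05), and Bnip3l, the paralog of Bnip3, from 86.0, 92.7 and 71.4 CPM to 403, 414 and 408 CPM (2.29 ± 0.14, adjusted p = 1.06e-12). In all 4 genes the libraries of the times did not overlap. The medians were 0.27 in Rescue LCM, 0.50 in WT HCM and 0.46 in PKP4-KO HCM. The differences were more positive in 10, 10 and 11 members and more negative in 0, 0 and 3, and without TMM factors against PKP4-KO HCM in 25 and 1.

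Genes of cytosolic ribosomal proteins, also chosen after values were seen, were called in 0 of 73 tested members by edgeR in either direction, with a median of -0.30 in Rescue HCM. No member had an unadjusted p below 0.05, and DESeq2 called 0 as well. The log2 fold change was nevertheless above 0 in only 4 of the 73, against 7664 of all 15114 tested genes. The list thus lay lower at 72 h without calls of single genes, and the spread in these tests was shared over all 36 libraries. In PKP4-KO HCM the median was 2.14, and the difference passed the test as negative in 60, or in 33 without TMM factors.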
